A study of Mus musculus with 11 samples.

Results

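Transversions, the substitutions that exchange a purine for a pyrimidine or the reverse, were described in exomes of 11 pancreatic ductal adenocarcinomas of mice. They were taken from a table of protein-altering variants as every call with a reference and a variant allele of 1 base that was neither an A/G nor a C/T change. Repeats of the same position in the same tumour were dropped, which left 283 transversions in 260 genes, of 706 single-base substitutions and 739 variant records in all. Strands were folded, so that a G-to-T change counts as C-to-A, which gave 157 C-to-A, 54 C-to-G, 30 T-to-A and 42 T-to-G calls.

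The 4 KPT tumours came from mice with floxed Trp53 alleles (Trp53fl/fl), which Cre removes, and the 7 KT tumours from mice without them. Mice of both genotypes carried Ptf1aCreER, a tamoxifen-activated Cre recombinase that acts in acinar cells of the pancreas, 2 Rosa26 copies of a tdTomato reporter behind a stop cassette (Rosa26LSL-tdTomato/LSL-tdTomato), and an engineered oncogene allele, the K of both names, that is not described here. They were given 5 mg tamoxifen by mouth on 3 days in a row when 8 to 10 weeks old and were kept until morbid, as the labels state. The labels do not say whether any tumours shared an animal, so p-values measure the spread between these samples. The tissue was bulk, so cells other than tumour cells contribute to the DNA, and no matched normal tissue was used here. Whether inherited variants were removed is not given in the sources used here, so the calls are described as listed variants and not as mutations shown to have arisen in the tumours. DNA variants hold no expression, so the acinar origin could not be checked against cell markers.

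In the genetic code, transitions and transversions reach different amino acids: a C-to-A change can turn proline into histidine or glycine into tryptophan, which no transition can do. Transversions are known to follow from particular kinds of damage. Oxidised guanine pairs with adenine and leaves C-to-A changes, and base excision repair enzymes such as OGG1 and MUTYH act on it. Loss of p53, the product of Trp53, is known to weaken the arrest of cells with damaged DNA.

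For most calls the table gives the changed codon and not the wider sequence. The call with sequence around it in the RefSeq promoter table (GRCm38.p6) is the T-to-G change of Plet1, a placenta-expressed transcript gene that is also known from epithelial cells, in KT tumour 3. It is shown because it places a change within the gene's start, with the changed T and no other base in capitals, on the plus strand at chr9:50494548-50494574.
Plet1, reference: aaacagcccgggaccatgctgTcgctc
The start codon atg lies 6 bases before the changed base, which turns the third codon from tcg to gcg (S3A). The variant base was on 18 of 38 reads. For the other calls, codons are given with the changed base in capitals, as in the table.

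Many calls rested on few reads. The sites of transversions were covered by 10 to 198 reads (median 19), and a call rested on 2 to 95 variant reads (median 9). The median depth of transversion sites was 43, 17, 11 and 12 reads in KPT tumours 1 to 4, against 32, 13, 31, 38, 27, 21.5 and 58 reads in KT tumours 1 to 7. Transversion sites were thus shallowest in KPT tumours 3 and 4 and KT tumour 2. At transition sites the median depth was 10, 19 and 48 reads in these tumours, so KT tumour 2 was not shallow there. The listed allele fraction, the caller's estimate of the share of DNA with the variant, started at 25%, and at 10 reads it is imprecise. It is not the plain share of reads. In KPT tumour 3, a call of Cdk2 on 2 of 11 reads (18.2%) is listed at 27.3%, and 1 of Fas on 3 of 11 reads (27.3%) at 25%. Intervals below are 95% Wilson intervals and cover counting error only, since reads are not stated to be independent molecules.

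The transversions fell very unevenly over the tumours. KPT tumours 1 to 4 had 7, 13, 55 and 47, and KT tumours 1 to 7 had 57, 6, 29, 29, 35, 2 and 3. The mean was 30.5 ± 24.0 in KPT tumours (SD, n = 4) and 23 ± 20.4 in KT tumours (SD, n = 7), and the ranges overlapped. The difference of 7.5 lay within the spread (exact two-sided permutation p = 0.582 over 330 splits; adjusted p = 0.582 over 7 comparisons). It was -11.1 with sites under 20 reads left out, -0.667 without KPT tumour 3, and 18.2 with calls in runs of neighbouring variants left out (exact permutation p = 0.0818, adjusted p = 0.200), so the direction changed with the calls and tumours entered.

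As a share of all substitutions, transversions made up 38.9%, 38.2%, 88.7% and 68.1% in KPT tumours 1 to 4. In KT tumours 1 to 6 they made up 27.0%, 54.5%, 32.6%, 38.7%, 27.3% and 33.3%; KT tumour 7 had only 3 substitutions, all of them transversions, and was not entered. KPT tumour 3 had 55 transversions among 62 substitutions (78.5% to 94.4%) and stood above every KT tumour with at least 5 substitutions, as did KPT tumour 4. The means were 58.5% ± 24.5 (SD, n = 4) in KPT and 35.6% ± 10.2 (SD, n = 6) in KT tumours, with an exact two-sided permutation p = 0.0476 over 210 splits that did not pass after adjustment over 7 comparisons (adjusted p = 0.333). The difference was 22.9 points over all calls, 2.74 points with sites under 20 reads left out, and 2.98 points without KPT tumours 3 and 4. With those sites left out, only 3 KPT and 4 KT tumours had enough calls, so the tumours compared changed as well.

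**Figure D1:**
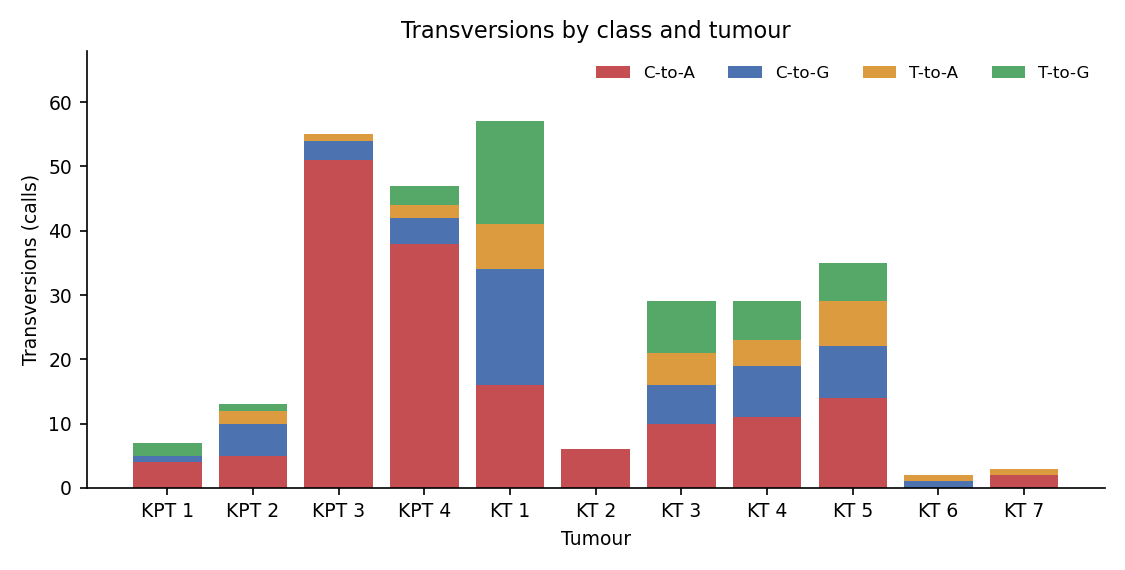
Number of transversions (calls) in each tumour, stacked by folded class. C-to-A calls fill most of the bars of KPT tumours 3 and 4 (51 of 55 and 38 of 47), while the bars of KT tumours 1, 3, 4 and 5 hold all 4 classes.

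C-to-A was the most frequent class, with 98 calls in KPT and 59 in KT tumours. KPT tumours 1 to 4 had 4, 5, 51 and 38 such calls, which made up 57.1%, 38.5%, 92.7% and 80.9% of their transversions. KT tumours 1 to 5 had 16, 6, 10, 11 and 14, or 28.1%, 100%, 34.5%, 37.9% and 40.0%. All 6 transversions of KT tumour 2 were C-to-A (61.0% to 100%), so the ranges of the genotypes overlapped. The mean share was 67.3% ± 24.3 in KPT (SD, n = 4) and 48.1% ± 29.4 in KT tumours (SD, n = 5). The difference lay within the spread (p = 0.294, exact permutation test over 126 splits; adjusted p = 0.455 over 4 classes). It was 19.2 points over all tumours, 32.2 points without KT tumour 2 (exact permutation p = 0.0571, adjusted p = 0.171) and 10.7 points without KPT tumour 3.

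Most C-to-A calls of KPT tumours 3 and 4 had few variant reads. Of 90 transversions with 3 or fewer variant reads, 87 were C-to-A, and transitions had 19 calls with as few. KPT tumour 3 had 45 such C-to-A calls of 51 (88.2%, 76.6% to 94.5%), and KPT tumour 4 had 24 of 38 (63.2%, 47.3% to 76.6%). The other 3 classes had 2 few-read calls in KPT tumour 3, 1 in KPT tumour 2 and none elsewhere. With at least 5 variant reads, KPT tumours 1 to 4 kept 4, 1, 1 and 2 C-to-A calls of 7, 8, 3 and 11 transversions, and KT tumours 1, 3, 4 and 5 kept 12, 6, 11 and 11 of 53, 25, 29 and 32. In that setting, over tumours with at least 5 such transversions, the KPT minus KT difference in the C-to-A share was -0.46 points, against 19.2 points over all calls.

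**Figure D2:**
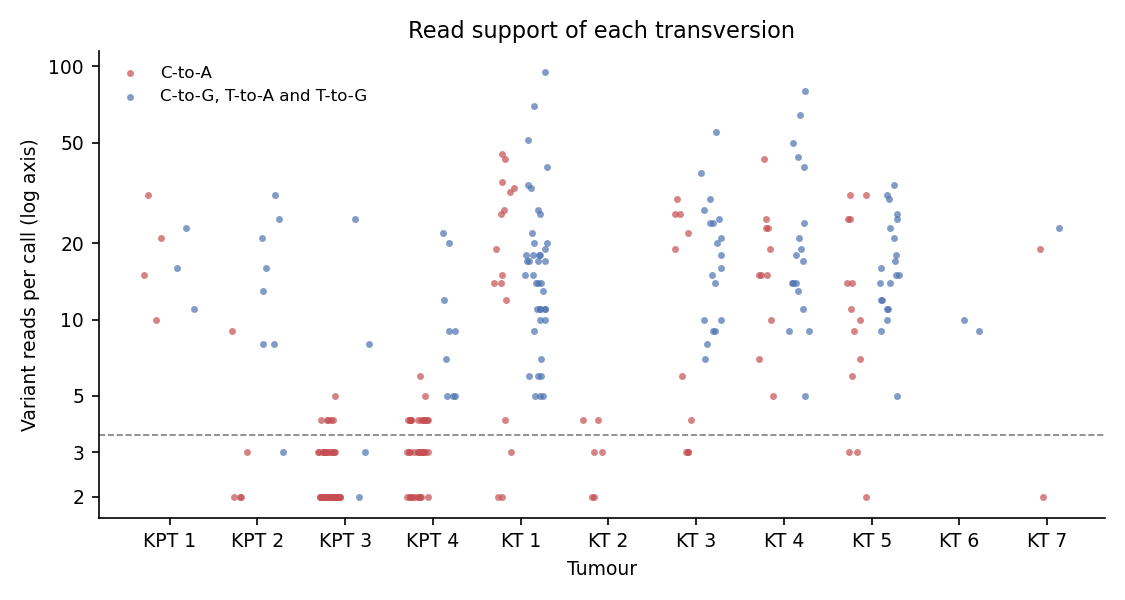
Variant reads of each transversion (log axis) by tumour, with C-to-A calls in red left of the other 3 classes in blue, and a dashed line between 3 and 4 reads. C-to-A calls of KPT tumours 3 and 4 lie between 2 and 6 reads, whereas those of KT tumour 4 lie between 5 and 43.

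Within tumours, more of the transversions than of the transitions had few variant reads, and nearly all such transversions were C-to-A. Pooled over tumours, 3 or fewer reads supported 55.4% of C-to-A, 3.70% of C-to-G, 3.33% of T-to-A and 0% of T-to-G calls, against 4.49% of transitions. The classes were not tested apart. The share with 3 or fewer reads among transversions against transitions was 0% and 0% in KPT tumour 1, 38.5% and 0% in KPT tumour 2, 85.5% and 71.4% in KPT tumour 3, and 51.1% and 18.2% in KPT tumour 4. In KT tumours 1 to 5 it was 5.26% against 2.60%, 66.7% against 20%, 10.3% against 0%, 0% against 2.17%, and 8.57% against 3.23%. The share was higher among transversions in 7 of the 9 tumours with at least 5 calls of each kind, by a mean of 16.5 points (exact two-sided sign-flip permutation p = 0.0156 over 512 sign patterns, adjusted p = 0.0391 over 4 within-tumour differences). The median allele fraction was lower among transversions in 8 of the 9 tumours, by a mean of 5.14 points (40.1% against 45.2%; exact sign-flip permutation p = 0.0195, adjusted p = 0.0391). Without any single tumour of the 9 the adjusted p of the few-read difference was 0.0625 to 0.0781, and that of the allele fraction passed again only without KT tumour 5. The median depth at the sites differed by -4.28 reads (exact sign-flip permutation p = 0.473, adjusted p = 0.630).

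Between the genotypes the few-read share of transversions was 43.7% ± 35.3 in KPT (SD, n = 4) and 18.2% ± 27.4 in KT tumours (SD, n = 5), a difference within the spread (exact two-sided permutation p = 0.254, adjusted p = 0.472). The difference of 25.6 points was 40.2 points without KPT tumour 1, 11.7 points without KPT tumour 3 and 37.7 points without KT tumour 2. The median allele fraction of transversions was 45.5%, 43.4%, 27.2% and 28.4% in KPT tumours 1 to 4 and 48.2%, 25.8%, 44.6%, 45.7% and 51.7% in KT tumours 1 to 5. KPT tumours 3 and 4 and KT tumour 2 lay just above the floor of the table and the others near an even mixture. The genotype means of 36.1% ± 9.66 (SD, n = 4) and 43.2% ± 10.1 (SD, n = 5) did not differ beyond the spread (exact permutation p = 0.270, adjusted p = 0.472). Allele fractions above 80% were listed for 26 of 283 transversions, 1 of 122 in KPT and 25 of 161 in KT tumours. Transitions were split likewise, with 61 of 423, 1 of 61 in KPT and 60 of 362 in KT tumours.

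The exchanges that stood out were glycine to tryptophan and proline to histidine, with 17 calls each, the most frequent of 78 missense exchanges. Glycine is the smallest residue and tryptophan the bulkiest, and proline, which bends the chain, is replaced by a residue that can carry charge. Gly-to-Trp calls numbered 9 in KPT tumour 3, 5 in KPT tumour 4, 2 in KT tumour 3 and 1 in KT tumour 7. Pro-to-His calls numbered 1, 7 and 7 in KPT tumours 2, 3 and 4 and 1 each in KT tumours 2 and 5. All 34 lay in different genes, and none had more than 4 variant reads. Together they made up 31.4% of C-to-A calls in KPT tumour 3 (20.3% to 45.0%) and 31.6% in KPT tumour 4 (19.1% to 47.5%). In KPT tumours 1 and 2 they were 0 of 4 and 1 of 5 such calls. They were 0 of 16, 1 of 6, 2 of 10, 0 of 11, 1 of 14 and 1 of 2 in KT tumours 1, 2, 3, 4, 5 and 7. The interval of every KT tumour with a C-to-A call overlapped those of KPT tumours 3 and 4, except that of KT tumour 1 (0% to 19.4%), which lay below that of KPT tumour 3.

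At the codon level, every Gly-to-Trp call was Ggg to Tgg, the only route the genetic code allows by 1 base, and 13 of the 17 Pro-to-His calls were cCc to cAc. Among named genes, cCc to cAc was the change of Jak1 P866H (2 of 10 reads), the gene of a kinase that carries cytokine signals, and of Cdk2 P289H (2 of 11 reads), a kinase of the cell cycle, both in KPT tumour 3. It was also that of P227H in Hdac4, a histone deacetylase gene, in KPT tumour 4 (3 of 12 reads). The codon change gGg to gTg, glycine to valine, was listed 5 times, all in KPT tumours, among them G1145V of Tet3, an enzyme that oxidises methylcytosine (2 of 10 reads), and G109V of Ctnna1, the alpha-catenin gene (5 of 21 reads), in KPT tumour 4. Arginine to leucine had 7 calls in KPT and 1 in KT tumours, beside 98 and 59 C-to-A calls of all exchanges. KPT tumours 3 and 4 held every KPT call of this exchange (4 and 3). At most 3 variant reads supported 6 of the 8 calls.

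**Figure D3:**
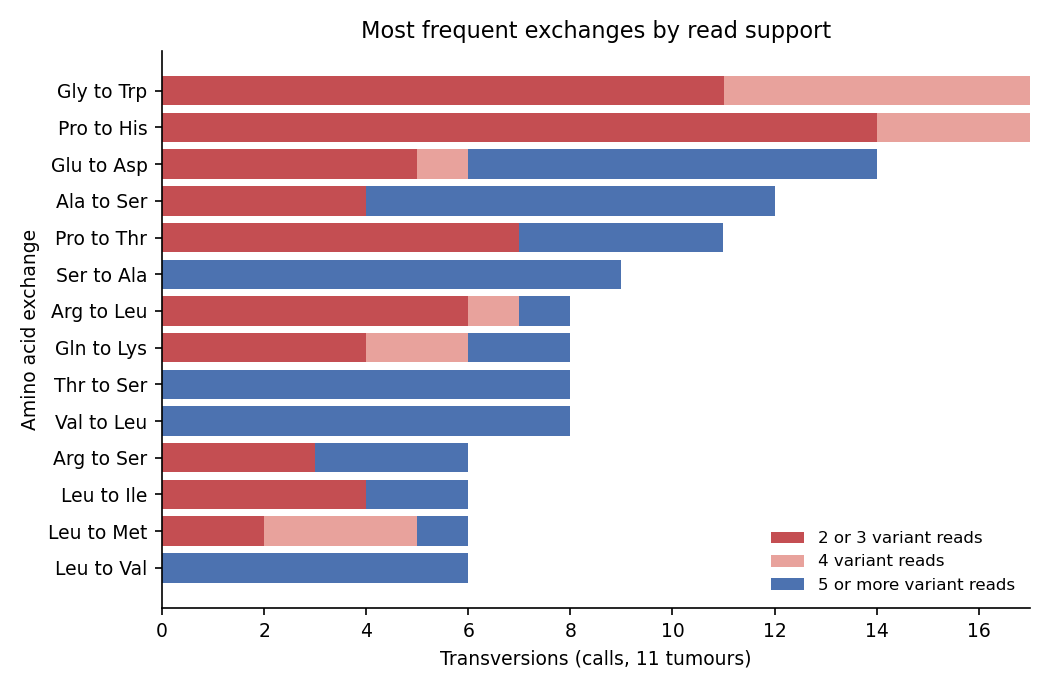
The 14 most frequent amino acid exchanges among transversions (calls over 11 tumours), split by the number of variant reads. All Gly-to-Trp and Pro-to-His calls have 4 or fewer reads, while all 9 Ser-to-Ala and all 6 Leu-to-Val calls have 5 or more.

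Several other exchanges of the C-to-A class included well supported calls. Alanine to serine had 12 calls, 6 in KPT and 6 in KT tumours, with up to 31 variant reads, and 4 of them had 3 or fewer. Glutamate to aspartate, which keeps the charge, had 8 C-to-A calls, 7 of them in KPT tumours. Of these 8, 5 had 3 or fewer variant reads (median 2.5). The best supported was E206D of Odc1, the gene of ornithine decarboxylase, the rate-limiting enzyme of polyamine synthesis. It was on 31 of 55 reads in KPT tumour 1, at a site the authors marked as poorly mappable. Phenylalanine to leucine at codon 36 of Nipsnap3b was on 45 of 52 reads in KT tumour 1, the most variant reads of any C-to-A call. M78I of Pign, which acts in making the lipid anchors of cell surface proteins, was on 43 of 43 reads in KT tumour 4.

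In both KPT tumour 3 and KPT tumour 4 the changed cytosine mostly followed another cytosine. The codon gives the base just 5′ of the folded C for 97 of the 157 C-to-A calls, and that base was C in 58 (59.8%, 49.8% to 69.0%). It was C in 0 of 3, 2 of 3, 25 of 31 and 22 of 23 calls in KPT tumours 1 to 4, against 1 of 9, 2 of 3, 3 of 4, 0 of 8, 2 of 11 and 1 of 2 in KT tumours 1, 2, 3, 4, 5 and 7. The share was therefore high in KPT tumours 3 and 4 (80.6% and 95.7%) and at most 18.2% in KT tumours 1, 4 and 5, the other tumours with more than 4 such calls. For C-to-T calls pooled over tumours, the base was C in 44 of 209 (21.1%), and for C-to-G calls in 2 of 36 (5.56%). Within the 9 tumours with at least 3 calls of each kind, the share averaged 46.0% for C-to-A and 27.8% for C-to-T calls, a difference of 18.2 points that did not pass (exact sign-flip permutation p = 0.141).

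Most of this overlaps with the exchanges above. The genetic code puts a C before the changed base of all 34 Pro-to-His and Gly-to-Trp calls, and the changed residue alone fixed it in 46 of the 58 calls after C. Among the 51 calls whose residue does not fix a C there, some of which it fixes to another base, a C preceded in 5 of 11 in KPT tumour 3 and 6 of 7 in KPT tumour 4. It preceded in 1 of 2 such calls in KPT tumour 2, in 0 of 3 in KPT tumour 1, and in 0 of 28 over the KT tumours (0% to 12.1%).

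The share was also set beside read support. Among C-to-A calls with 3 or fewer variant reads a cytosine preceded in 38 of 45 KPT calls (84.4%, 71.2% to 92.3%) and in 6 of 9 KT calls (66.7%, 35.4% to 87.9%). Within KPT tumour 3 it preceded in 21 of 27 calls with 3 or fewer reads and 4 of 4 with more. Within KPT tumour 4 it preceded in 15 of 16 and 7 of 7. The calls with more reads had 4 each, except 1 call of KPT tumour 4, so better supported calls were hardly covered. With 5 or more reads a cytosine preceded in 3 of 32 calls over all tumours (9.38%, 3.24% to 24.2%). These were 0 of 3, 0 of 1 and 1 of 1 calls of KPT tumours 1, 2 and 4, and 2 of 27 KT calls (7.41%, 2.06% to 23.4%). These calls are not replicates. Per tumour, with at least 3 calls each, the share was 60.7% ± 42.2 in KPT (SD, n = 4) and 34.2% ± 34.2 in KT tumours (SD, n = 5), a difference within the spread (p = 0.341, exact permutation test over 126 splits). The measure was chosen after its values had been seen, and depth and read support moved with it; their part was not tested.

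**Figure D4:**
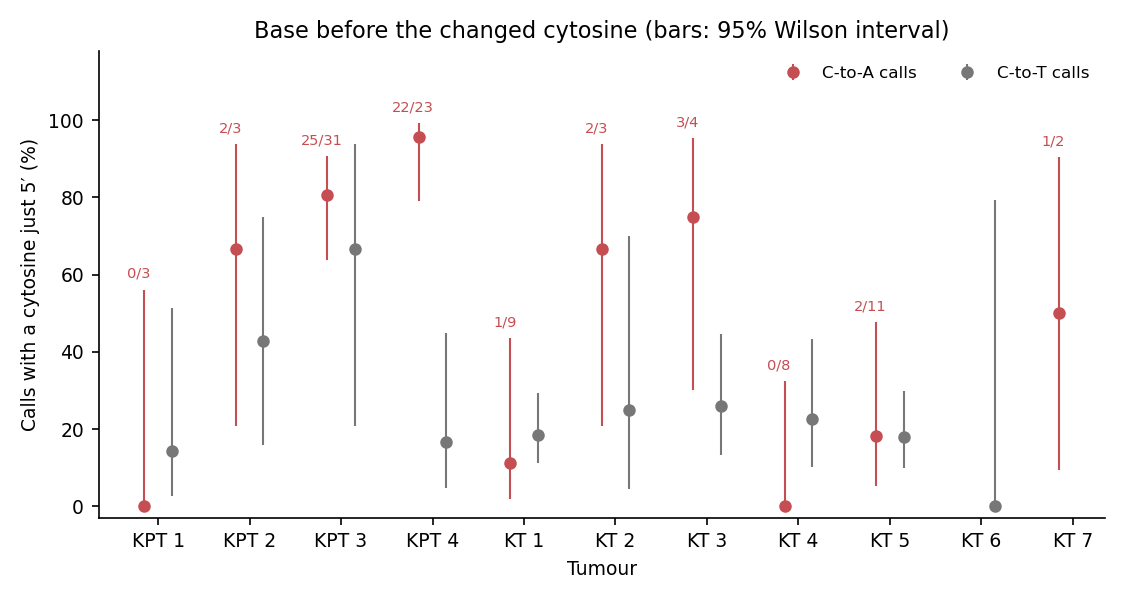
Share of C-to-A calls (red) and C-to-T calls (grey) whose folded cytosine has a cytosine just 5′, by tumour, with 95% Wilson intervals; the red fractions give the calls. The C-to-A share is 80.6% and 95.7% in KPT tumours 3 and 4 and 0% to 18.2% in KT tumours 1, 4 and 5.

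Read orientation at C-to-A sites, pooled over the calls of each tumour, was close to even in most tumours. F1R2 and F2R1 name which read of a pair lies forward, and guanine oxidised during library preparation is known to put the variant in F1R2 where the reference base is G and in F2R1 where it is C. In that orientation were 46.8%, 52.7% and 61.3% of the variant reads in KPT tumours 1, 3 and 4, against 51.3%, 42.3%, 48.2%, 44.2% and 61.9% in KT tumours 1, 3, 4, 5 and 7, the tumours with at least 20 such reads. KPT tumour 4 had 73 of 119 variant reads so oriented (52.4% to 69.6%), above the 46.8% of its 355 reference reads (41.6% to 52.0%); in the other tumours the 2 intervals overlapped. Most calls, 147 of 157, had variant reads in both orientations, 4 in the named orientation alone and 6 in the other alone. Among calls with 3 or fewer variant reads, 77 of 87 had both orientations, including all 24 of KPT tumour 4, against 9 of 14 such C-to-T calls. Filters are not given, so the listed calls may have been selected on orientation, which was not tested. The genotype means of 53.6% ± 7.34 (SD, n = 3) and 49.6% ± 7.73 (SD, n = 5) lay within the spread of each other (p = 0.500, exact permutation test over 56 splits; adjusted p = 0.582). At C-to-G, T-to-A and T-to-G sites the share by the same convention was 48.2% of 2344 variant reads.

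**Figure D5:**
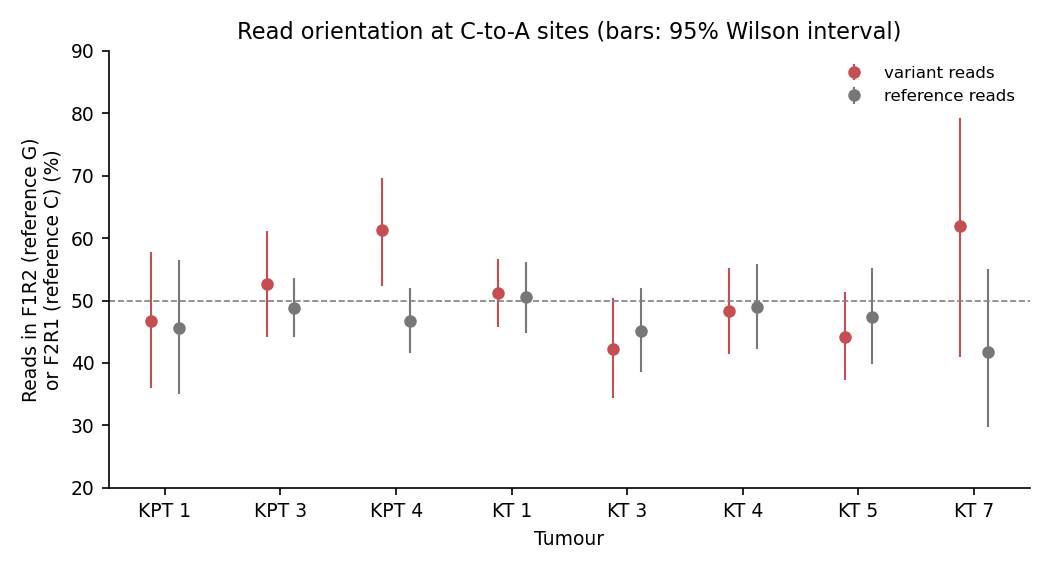
Share of reads at C-to-A sites in F1R2 (reference G) or F2R1 (reference C), for variant reads (red) and reference reads (grey), with 95% Wilson intervals and a dashed line at 50%. KPT tumour 4 has 61.3% of variant reads and 46.8% of reference reads in this orientation.

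On the coding strand, C-to-A calls read as G-to-T in 4 of 5, 29 of 51 and 21 of 38 calls of KPT tumours 2, 3 and 4, and in 4 of 4 calls of KPT tumour 1, too few to enter the test. In KT tumours 1 to 5 they did so in 5 of 16, 3 of 6, 6 of 10, 6 of 11 and 6 of 14 calls. The means were 64.0% ± 13.8 in KPT (SD, n = 3) and 47.7% ± 11.2 in KT tumours (SD, n = 5), within the spread (exact two-sided permutation p = 0.125, adjusted p = 0.438). The difference of 16.3 points was 24.9 points with every tumour that had a call (exact permutation p = 0.0190, adjusted p = 0.133; n = 4 and 6) and 8.33 points without KPT tumour 2.

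C-to-G calls numbered 13 in KPT and 41 in KT tumours, and 52 of the 54 had 5 or more variant reads. KPT tumours 1 to 4 had 1, 5, 3 and 4, and KT tumours 1, 3, 4, 5 and 6 had 18, 6, 8, 8 and 1. Leucine to valine (6 calls), alanine to proline and valine to leucine (5 each) led the class. The best supported was T57R of the olfactory receptor gene Olfr887 in KT tumour 1, on 95 of 198 reads and marked as poorly mappable. In KPT tumour 2, A2163P of Hmcn1, a long extracellular matrix gene, was on 31 of 67 reads and E995D of Lamc1, the laminin gamma 1 chain of basement membranes, on 25 of 49, in the same stretch of chromosome 1. L356V of the transcription factor gene Npas1 was on 25 of 25 reads in KPT tumour 3, the 1 transversion of a KPT tumour listed above 80% (95.7%). V200L of Nudt9, an ADP-ribose hydrolase gene, was on 8 of 21 reads there. The class made up 16.7% ± 14.98 of transversions in KPT (SD, n = 4) and 20.5% ± 12.2 in KT tumours (SD, n = 5; exact permutation p = 0.683, adjusted p = 0.683).

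T-to-A calls numbered 5 in KPT and 25 in KT tumours, and threonine to serine was the most frequent exchange with 4. Q54H of St6galnac1, a sialyltransferase gene, was on 64 of 124 reads in KT tumour 4. In KT tumour 6, E214V of the homeobox gene Six6 was on 10 of 20 reads, and in KT tumour 7, L458Q of Canx, the gene of the chaperone calnexin, was on 23 of 58. The class made up 5.36% ± 6.90 of transversions in KPT (SD, n = 4) and 12.7% ± 7.69 in KT tumours (SD, n = 5; exact permutation p = 0.175, adjusted p = 0.455).

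T-to-G calls numbered 6 in KPT and 36 in KT tumours, none with fewer than 5 variant reads. Serine to alanine led with 9 calls, 1 in KPT tumour 4 and 8 in KT tumours, and 8 of the 42 changes created a proline. H155P of Lgals9, the gene of the sugar-binding protein galectin-9, was on 40 of 40 reads in KT tumour 4, and M171L of the protease inhibitor gene Serpinb3a on 50 of 51, at a site marked as poorly mappable. Its relatives Serpinb3d, with the T-to-A change M274L (44 of 44 reads), and Serpinb3b, with the C-to-G change C385S (80 of 80), carry the same mark in that tumour, so reads of near-identical copies may be mixed. In KPT tumour 4, S156A of the predicted gene Gm9733 was on 22 of 34 reads. The class made up 10.7% ± 12.4 of transversions in KPT (SD, n = 4) and 18.7% ± 11.4 in KT tumours (SD, n = 5; exact permutation p = 0.341, adjusted p = 0.455).

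Transversions and transitions changed the chemical class of the residue in shares with overlapping intervals. Residues were grouped as nonpolar, polar, basic and acidic, and 161 of 281 missense transversions (57.3%, 51.5% to 62.9%) and 230 of 417 missense transitions (55.2%, 50.4% to 59.9%) crossed a group. The classes of transversion ran from 18 of 54 C-to-G (33.3%, 22.2% to 46.6%) through 16 of 30 T-to-A and 95 of 155 C-to-A to 32 of 42 T-to-G calls (76.2%, 61.5% to 86.5%). Within tumours the share differed by 0.0336 points between transversions and transitions (57.2% each, n = 9; exact sign-flip permutation p = 0.992, adjusted p = 0.992), with single tumours from -20.5 to 19.9 points. Between genotypes it was 55.03% ± 7.32 in KPT (SD, n = 4) and 59.0% ± 4.48 in KT tumours (SD, n = 5; exact permutation p = 0.365, adjusted p = 0.511). The third base of a codon was changed by 52 missense transversions and 7 missense transitions; transitions there are nearly all synonymous in the genetic code, and the table holds protein-altering variants only.

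Stop codons arose from 2 transversions, both C-to-A calls of KT tumours. G16* of the olfactory receptor gene Olfr884 was on 33 of 60 reads in KT tumour 1, in exon 2 of 2 at position 38047269 of chromosome 9, by Gga to Tga. E268* of Btnl10, a butyrophilin-like gene of the immunoglobulin family, was on 25 of 73 reads in KT tumour 4, in exon 5 of 5 at position 58926877 of chromosome 11, by Gag to Tag. No transversion removed a start or stop codon.

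Transversions were then looked up in lists of genes tied to tumours, repair and tissue identity. Outside very long genes, 11 of 262 listed genes had 1 transversion each, 7 in KPT and 4 in KT tumours. They made up 11 of the 27 substitutions in these genes (40.7%), beside 283 of 706 over all genes (40.1%). All 7 KPT calls lay in tumours 3 and 4, which hold 102 of the 122 KPT transversions. Of the listed calls 6 of 7 in KPT and 0 of 4 in KT tumours had 3 or fewer reads, beside 76 of 122 and 14 of 161 over all genes. The list of pancreatic cancer drivers held Tet3 alone, RAS-MAPK and PI3K signalling held Jak1 alone, and the cell cycle and death list held Cdk2 and Q260K of Fas, a death receptor gene (3 of 11 reads). In the matrix and adhesion list, P1589T of Tnc, the tenascin C gene (2 of 10 reads), and E317Q of the cadherin gene Dchs1 (3 of 14 reads) were in KPT tumour 3 and Ctnna1 G109V in KPT tumour 4, at position 35174277 of chromosome 18.

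The 4 KT calls of the lists lay on at least 7 reads. For repair of damaged bases, Apex2, an endonuclease that cuts at abasic sites, had F372C on 17 of 17 reads at position 150572204 of chromosome X, and Mpg, a glycosylase that removes alkylated bases, had V47L on 7 of 16 reads at position 32226679 of chromosome 11, both in KT tumour 1. Nlrx1, a mitochondrial innate immune receptor gene, had F37V there on 10 of 21 reads. Muc1, which encodes a membrane mucin of ducts, had V308D on 12 of 21 reads in KT tumour 5. The lists of mismatch and nucleotide excision repair and of axon guidance held none. Very long genes, 34 listed as a control for size, had 31 substitutions, of which 13 (41.9%) were transversions, beside 40.1% over all genes. In 8 of the 34 genes lay these 13 transversions, 4 in KPT and 9 in KT tumours. Among them were Q1050E and E2855D of Pclo, a presynaptic scaffold gene, on 26 of 27 and 31 of 31 reads, and A4326S of the dynein gene Dnah5 on 14 of 40, all in KT tumour 5.

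The authors' tumour suppressor mark was on 5 transversions. Beside Hmcn1 A2163P and Dchs1 E317Q these were K646M of Sptan1, an alpha-spectrin gene, in KPT tumour 3 (2 of 10 reads), K1142N of the polarity gene Crb2 in KPT tumour 4 (2 of 10 reads), and S1728I of Huwe1, an X-linked ubiquitin ligase gene, on 26 of 26 reads in KT tumour 1. KT tumours 2, 3 and 7 have no entry in the mark's column, nor in that of the poor mappability mark. The lack of either mark therefore says nothing about their calls.

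No position carried a transversion in more than 1 tumour, and 4 genes had transversions in 2 tumours. Akap9, the gene of a kinase anchoring protein, had F1119V, Q1138K and S1311C in KT tumour 5 (34 of 34, 31 of 32 and 21 of 21 reads) and G3306A in KT tumour 1 (17 of 33). Hmcn2 had P240T in KPT tumour 3 (3 of 12 reads) and E2146Q in KT tumour 1 (11 of 41). Hdac4 had P227H in KPT tumour 4 and A569S in KT tumour 5 (10 of 20 reads). Olfr891 had N271K in KT tumour 1 (20 of 52 reads) and L71F in KT tumour 3 (26 of 56).

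Besides Akap9, 4 genes held 3 transversions in 1 tumour. In KT tumour 3 these were Jaml, a junction adhesion gene of leukocytes, with D145E, S179R and V254L (24 of 50, 10 of 19 and 9 of 21 reads), and Cep164, a gene of the centriole, with I1068N, L791M and H460L (10 of 22, 6 of 14 and 21 of 50 reads). In KT tumour 1, Zfyve26, the spastizin gene, had F1846C, D189V and A132E at 14 of 29, 5 of 12 and 19 of 44 reads. In KPT tumour 4, Gm1527 had C90W, F236I and S423T at 5 of 12, 12 of 37 and 7 of 27 reads, all marked as poorly mappable. The 3 changes of each of these genes came from at least 2 classes.

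Many variants lay in runs, defined as at least 3 variant positions of a tumour with gaps of no more than 2 Mb. In runs lay 152 of 283 transversions (53.7%) and 345 of 423 transitions (81.6%), counts that pool tumours and were not tested. By class it was 48 of 157 C-to-A calls (30.6%), 42 of 54 C-to-G (77.8%), 26 of 30 T-to-A (86.7%) and 36 of 42 T-to-G calls (85.7%). The C-to-A share varied with the tumour, at 5 of 51 and 4 of 38 calls in KPT tumours 3 and 4. In KT tumours the 4 classes had 35 of 59 (59.3%), 35 of 41 (85.4%), 21 of 25 (84.0%) and 33 of 36 (91.7%) in runs. In KPT tumours they had 13 of 98, 7 of 13, 5 of 5 and 3 of 6. The run with most transversions, 12 of its 34 substitutions, lay on chromosome 9 of KT tumour 3 from 42971205 to 46211878 and held all 4 classes. The median allele fraction of its calls was 47.6%, and whether calls in runs are inherited was not tested. With calls in runs left out, a cytosine preceded the changed base in 45 of 52 C-to-A calls of KPT tumours (86.5%, 74.7% to 93.3%) and in 7 of 15 of KT tumours (46.7%, 24.8% to 69.9%).

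The best supported transversions of each tumour were also named. In KT tumour 2, whose 6 transversions had 2 to 4 variant reads, W40C of Dgat2, an enzyme of triglyceride synthesis, was on 4 of 19 reads and L3808M of the dynein gene Dnah17 on 4 of 14. In KT tumour 3, Q137E of the organic anion transporter gene Slc22a7 was on 55 of 55 reads and I62L of Olfr875 on 38 of 97. In KT tumour 1, A411P of the X-linked zinc-finger gene Zfp185 was on 70 of 70 reads, in KT tumour 5, A57S of the predicted gene Gm9903 was on 31 of 31, and in KT tumour 6, T411S of Wdfy4 was on 9 of 23. In KT tumour 7, T1222N of Polr2a, the largest subunit of RNA polymerase II, was on 19 of 66 reads. In KPT tumour 1, Q99H of the acyltransferase gene Mboat2 was on 23 of 51 reads, and in KPT tumour 4, A157G of Anxa5, the annexin A5 gene, was on 20 of 53.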

How the data were processed

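Per the labels' protocols, exomes were captured from linked-read libraries. GATK, HISAT2 2.0.4, mm10 and GRCm38 are named in the submitters' processing notes without a role; caller settings, filters and normal tissue are not given in the sources used here. Per the file headers, the deposited depth is in counts of reads, the deposited allele fraction is a fraction (printed in percent), and reference and variant reads are pairs, also by orientation. Pairs summed to the depth in all 283 transversions, and codons and strand gave the listed bases and amino acids in all 283. Orientation was given for 98.9% of variant reads.

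The tumour was the replicate. Genotypes were compared by exact permutation of group means, with at least 5 calls (orientation: 20 variant reads) per tumour, and transversions with transitions by sign flips within tumours. Benjamini-Hochberg adjustment covered 4 classes, 7 other comparisons and 4 within-tumour differences, with a threshold of 0.05. Named genes (52) were stop gains, the 2 best supported calls per tumour and per class, list genes, marked genes, genes in 2 tumours and genes with 3 calls in 1, with at most 5 very long genes. Chemical classes were nonpolar (A, V, L, I, M, F, W, P, G), polar (S, T, C, Y, N, Q), basic (K, R, H) and acidic (D, E). Members, lists and tests were chosen with earlier results of these data known. The tests were tested on simulated data. Alternatives were at least 5 variant reads, a depth of at least 20 reads, 1 call per tumour, calls in runs left out, KPT tumours 3 and 4 left out, each tumour left out, and the tumour number as a block; the neighbouring base was added after the data were seen. The labels do not say that tumour numbers pair animals, and same-numbered tumours did not deviate together for 3 of the 4 numbers (correlations 0.655, -0.890, -0.906 and -0.992). One engineered allele is not reported here. Permutations were enumerated in full with NumPy 2.4.6, intervals came from SciPy 1.17.1 and codons from Biopython 1.88, with Matplotlib 3.10.9 and pandas 2.3.3 under Python 3.11.15.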

Additional observations from a re-analysis of the deposited data

Results flagged for a closer look

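KT tumour 2 lay far from the other KT tumours with at least 5 transversions in 4 measures. Its C-to-A share of transversions was 100%, its share of transversions with 3 or fewer variant reads was 66.7%, and the median allele fraction of its transversions was 25.8%. Its few-read share was 46.7 points higher among transversions than among transitions. It had 6 transversions at a median depth of 13 reads, so each of these values rests on 6 calls. Of 28 groups of 4 to 10 tumours looked at, 4 held a tumour that stood so far apart, each time this one, and the 4 measures share the same calls. Chance alone marks about 1 in 20 groups.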

How the results depend on the processing

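Of 80 values recomputed under other settings, 51 kept their direction and their side of the threshold, 9 lost the call and 20 reversed; the causes were not tested unless given. KPT minus KT, transversions per tumour came to -13.2 with at least 5 variant reads, -11.1 with sites under 20 reads left out and -13 without KPT tumours 3 and 4. The C-to-A share came to -0.46, -1.23 and -0.295 points and the C-to-G share to 5.91, 12.95 and 5.83 points in these settings, and the C-to-G share to 2.08 points with calls in runs left out. These shares covered 2 KPT and 5 KT tumours without KPT tumours 3 and 4, and 3 and 4 tumours in the other settings. The median allele fraction came to 1.26 points without KPT tumours 3 and 4, and the class-changing share to 0.976 points with 1 call per tumour and 1.10 points outside runs.

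Transversions minus transitions, the few-read share came to 0 points at a depth of at least 20 reads, where an allele fraction of at least 25% leaves hardly any few-read call, 12.3 points with 1 call per tumour, 14.5 points without KPT tumours 3 and 4 and 26.8 points outside runs. The median allele fraction came to -5.22, -4.66, -4.28, -3.98 and -2.83 points with at least 5 variant reads, with sites under 20 reads left out, with 1 call per tumour, without KPT tumours 3 and 4 and outside runs. None of these passed, and several used fewer tumours. The median depth came to 1.86 and 0.429 reads with at least 5 variant reads and at a depth of at least 20, and the class-changing share to -1.70, -3.65, -2.47 and -2.52 points with at least 5 variant reads, at that depth, with 1 call per tumour and outside runs. The share of C-to-A calls after a cytosine, minus that of C-to-T calls, was -15.3 points over 4 tumours with at least 5 variant reads (18.2 points over 9 tumours and all calls). The 4 were KPT tumour 1 and KT tumours 1, 4 and 5. Over all calls their C-to-A and C-to-T shares were 0% and 14.3%, 11.1% and 18.6%, 0% and 22.7%, and 18.2% and 17.9%. The change of sign thus goes with a change of tumours.

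With each tumour left out in turn, transversions per tumour ranged between -0.667 and 15.3, the few-read difference between 12.7 and 18.8 points, the allele fraction difference between -5.99 and -3.49 points and the class-changing difference between -2.44 and 2.60 points. With the tumour number as a replicate block over 4 pairs, the transversion share differed by 20.3 points and the C-to-A share by 17.2 points, none of which was called with or without it; over 4 pairs the smallest two-sided p that sign flips allow is 0.125, so the block could add no call. Depth limits what the few-read calls can show: 10 to 12 reads leave allele fractions near the 25% floor of the table imprecise.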
